A study of Homo sapiens with 4 samples.

Results

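The subunits of the oxidative phosphorylation (OXPHOS) complexes were examined in Hs578T cells, an established line from a human breast carcinoma, after knockdown of talin-1. Members were taken by symbol: the mitochondrially encoded MT-ND, MT-CO, MT-CYB and MT-ATP genes, and the nuclear NDUFA, NDUFB, NDUFC, NDUFS, NDUFV, SDH, UQCR, COX4 to COX8 and ATP5F, ATP5M and ATP5P genes, with pseudogenes left out. The choice gave 92 genes of the 16137 in the deposited table of log2 expression, 13 of them encoded by mitochondrial DNA and 79 by nuclear chromosomes. All 92 also passed the filter on low counts used for the test. A further 6 genes with matching symbols (ATP5MGL, COX4I2, COX6A2, COX6B2, COX7B2 and COX8C) had 0 to 11 counts per library and were outside that table.

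All cells were co-transfected with GFP. The control group, SCR, received a non-targeting RNA and the other group, siTLN1, an siRNA against TLN1, each at 1.6 µM, with RNA collected at 48 h. Polyadenylated RNA was sequenced from 2 libraries per group, described as biological replicates, and no label says whether they came from separately grown cultures, so p values measure the spread between these libraries. The libraries are called a and b after numbers that recur in the column names of both groups and whose meaning is not stated. No group lacked the GFP transfection or received a second siRNA against TLN1.

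Total counts ranged from 31854322 to 46353297 per library. TLN1, the targeted gene, had 871 ± 3.95 CPM (counts scaled to library size by TMM) in SCR and 48.3 ± 5.02 CPM in siTLN1 (SD, n = 2), a log2 fold change of −4.17. The labels call the cells epithelial, yet the epithelial markers EPCAM and KRT19 had 0 to 6 counts per library and CDH1 13 to 40. Of the other epithelial markers listed, ESR1 had 3 to 6 counts, GATA3 310 to 647, KRT8 546 to 800 and KRT18 3304 to 5809. The mesenchymal marker VIM stood at 3803 to 4023 CPM of the unscaled totals. Of the 8 immune, endothelial and adipocyte markers, CD3E and ADIPOQ had 0 counts in all 4 libraries, PLIN1 1 to 2, CDH5 0 to 7, VWF 3 to 12, PTPRC 12 to 20, CD68 8 to 23 and PECAM1 104 to 155.

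OXPHOS is the chain of protein complexes in the inner mitochondrial membrane that passes electrons from nutrients to oxygen and uses the resulting proton gradient to make ATP. Complexes I, III, IV and V combine a small core encoded by mitochondrial DNA with a larger set of subunits made from nuclear genes and imported, whereas complex II is wholly nuclear-encoded. The mitochondrial genes are transcribed as long precursors from both strands of a circular chromosome, cut apart around the tRNAs, and for most mRNAs given short poly(A) tails inside the organelle, whereas each nuclear gene has its own promoter.

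The annotated 3′ ends of the mitochondrially encoded genes are shown because they mark how these genes differ from nuclear ones. The annotation stops at the final codon or part of a codon and gives no 3′ UTR. Any bases of an mRNA past that point are therefore not shown. Of the 13 annotated genes, 6 stop before the final codon is complete, which the poly(A) tail then completes to UAA, and 7 end in a full codon. Each sequence gives the last 24 bases on GRCh38, 5′ to 3′ on the gene's own strand, with the final codon or part of a codon in capitals.
MT-ND1, chrM:4239-4262, plus strand: ctccagcattccccctcaaaccTA
MT-ND2, chrM:5488-5511, plus strand: ccccttttatactaataatcttaT
MT-CO3, chrM:9967-9990, plus strand: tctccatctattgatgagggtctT
MT-CYB, chrM:15864-15887, plus strand: aaaacaaaatactcaaatgggccT
MT-CO2, chrM:8246-8269, plus strand: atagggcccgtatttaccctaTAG
MT-ND6, chrM:14149-14172, minus strand: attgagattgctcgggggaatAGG
The first 4 have incomplete final codons and the last 2 have full ones, and MT-ND6 is the sole mRNA of its strand.

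Mitochondrially encoded subunits were higher after TLN1 knockdown, and nuclear-encoded ones were not called. By edgeR's quasi-likelihood test, with p values adjusted by Benjamini-Hochberg over all genes, 12 of the 13 mitochondrially encoded genes had an adjusted p under 0.05, all of them higher in siTLN1, against 2.3% of all tested genes called higher, 3.77% called lower and 6.07% called in either direction. Their median log2 fold change was 0.64, with a range of 0.43 to 0.80. Of the 79 nuclear-encoded genes, 0 passed in either direction, with a median of 0.070, and the median over all tested genes was 0.0033. Both siTLN1 libraries lay above both SCR libraries for all 13 mitochondrial genes, an order seen in 23.9% of all tested genes. With 2 libraries per group, an exact permutation test on any one gene cannot go below a p of 0.333, so the p values rest on a model that shares the spread across genes.

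The number of mitochondrial calls depended on single libraries. Without siTLN1 library a, 4 of the 13 genes passed (MT-ND1, MT-ND2, MT-ND3 and MT-CO3) and the class median was 0.43. Without SCR library a, 6 passed and the median was 0.51. Without the b libraries, 12 (SCR) and 13 (siTLN1) passed. The share of all genes called in these fits was 2.15% without siTLN1 a, 6.92% without SCR a, 5.8% without SCR b and 5.24% without siTLN1 b. All 13 log2 fold changes stayed above 0 in each of the 16 fits run, and those 4 genes passed in each of them. In bulk RNA, a change in the number of cells rich in a transcript and a change in the amount per cell cannot be told apart.

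**Figure D1:**
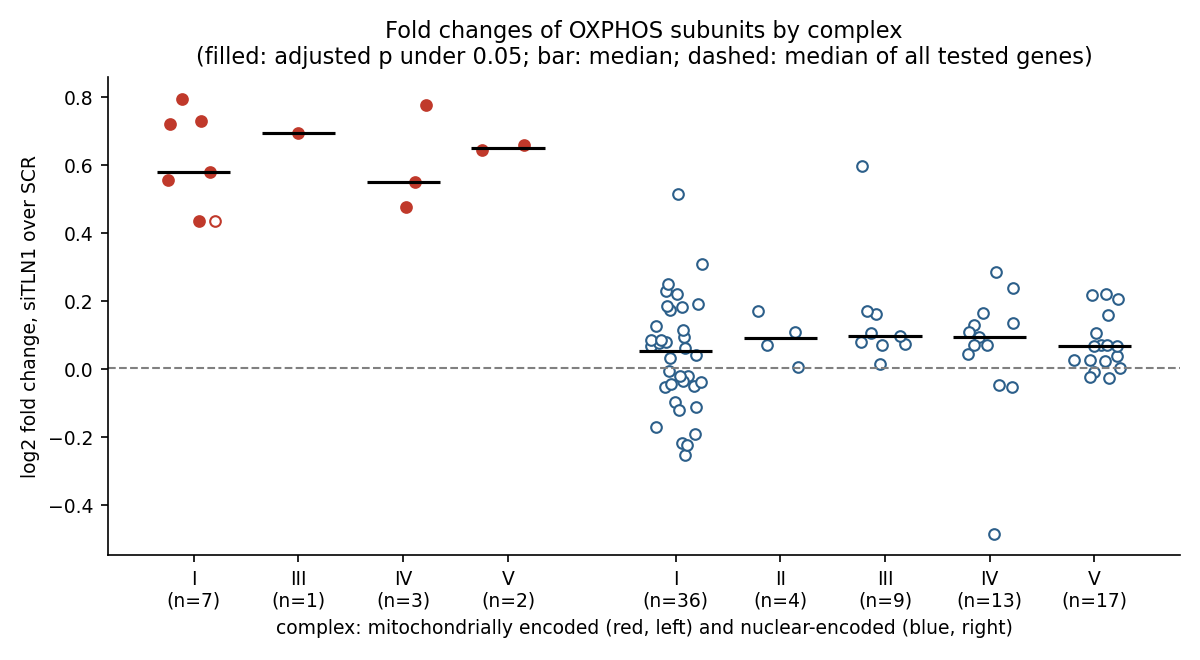
Log2 fold change, siTLN1 over SCR, of each subunit (points) by complex, with mitochondrially encoded genes in red on the left and nuclear-encoded genes in blue on the right; filled points have an adjusted p under 0.05, bars are medians and the dashed line is the median of all tested genes. The mitochondrial medians lie between 0.55 and 0.70, and the nuclear ones between 0.053 and 0.098.

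Complex I, the entry point for electrons from NADH, has 7 mitochondrially encoded subunits, all in its membrane arm. All 7 had log2 fold changes above 0, and 6 of them were called higher. MT-ND2 (chrM:4470-5511) had 769 and 996 CPM in SCR libraries a and b and 1687 and 1376 CPM in siTLN1 libraries a and b, and its log2 fold change of 0.80 (SE 0.14, adjusted p 0.00404 by edgeR) was the highest of the class. MT-ND1 (chrM:3307-4262) had 723 and 849 CPM in SCR and 1491 and 1115 CPM in siTLN1, a log2 fold change of 0.73 (SE 0.14, adjusted p 0.00701 by edgeR). MT-ND3 (chrM:10059-10404), the shortest of the complex I mRNAs after MT-ND4L, had 304 and 363 CPM in SCR and 591 and 509 CPM in siTLN1, a log2 fold change of 0.72 (SE 0.11, adjusted p 0.00106 by edgeR). In all of these the siTLN1 a library was the highest and the SCR a library the lowest, and the groups did not overlap.

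MT-ND4L and MT-ND4 are read from 1 bicistronic mRNA in overlapping frames. The shared 7 bases, chrM:10760-10766, are in capitals in the end of the first and the start of the second.
MT-ND4L end, chrM:10743-10766, plus strand: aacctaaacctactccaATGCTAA
MT-ND4 start, chrM:10760-10783, plus strand: ATGCTAAaactaatcgtcccaaca
MT-ND4L had 503 and 615 CPM in SCR and 930.0 and 715 CPM in siTLN1, and MT-ND4 had 3179 and 3936 CPM in SCR and 5951 and 4692 CPM in siTLN1. Their log2 fold changes were 0.56 and 0.58, with SEs of 0.13 and 0.14 and adjusted p of 0.0277 and 0.0249 by edgeR. These values lay closer together than the SE of either. The same held for MT-ND5 (0.436) and MT-ND6 (0.435), which lie on opposite strands, so such closeness is not particular to this mRNA. Neither passed without SCR library a (0.42 and 0.44) or without siTLN1 library a (0.36 and 0.40).

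The lowest values of the class belonged to MT-ND5 and MT-ND6, neighbours on opposite strands. MT-ND5 (chrM:12337-14148) had 1890.2 and 2176 CPM in SCR and 3100.3 and 2401 CPM in siTLN1, a log2 fold change of 0.44 (SE 0.13) that missed the threshold with an adjusted p of 0.0643 by edgeR. With all 4 libraries it passed with total counts only, with DESeq2, with limma-voom, with the length trend removed and in both fits with a replicate block, at log2 fold changes of 0.43 to 0.47, and it also passed without siTLN1 library b (0.61). MT-ND6 (chrM:14149-14673, minus strand) had 444 and 535 CPM in SCR and 725 and 598 CPM in siTLN1, a log2 fold change of 0.43 (SE 0.12, adjusted p 0.0428 by edgeR). It did not pass without SCR library a (0.31) or without siTLN1 library a (0.29). Counting used no strand option, so reads from MT-ND6 and from RNA antisense to it, including the precursor of the other strand, cannot be told apart.

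Complex III passes electrons from ubiquinol to cytochrome c, and MT-CYB, cytochrome b, is its one mitochondrially encoded subunit. MT-CYB (chrM:14747-15887) had 826 and 909 CPM in SCR and 1603 and 1207 CPM in siTLN1, a log2 fold change of 0.70 (SE 0.13, adjusted p 0.00599 by edgeR). It missed the threshold without siTLN1 library a (0.48). MT-CYB lies next after MT-ND6 on the chromosome, and its value was higher than those of MT-ND5 and MT-ND6, although their differences from it were not tested.

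The catalytic core of complex IV, which reduces oxygen, is formed by MT-CO1, MT-CO2 and MT-CO3, and all 3 rose. MT-CO3 (chrM:9207-9990) had 1408 and 1643 CPM in SCR and 2837 and 2384 CPM in siTLN1, a log2 fold change of 0.78 (SE 0.12) with the smallest adjusted p of the class, 0.00104 by edgeR. MT-CO1 (chrM:5904-7445) had 3029 and 3531 CPM in SCR and 5282 and 4323 CPM in siTLN1, a log2 fold change of 0.55 (SE 0.13, adjusted p 0.0164 by edgeR). MT-CO2 (chrM:7586-8269) had 2285 and 3013 CPM in SCR and 3879 and 3489 CPM in siTLN1, a log2 fold change of 0.48 (SE 0.13, adjusted p 0.0478 by edgeR). The siTLN1 libraries of MT-CO3 were both well clear of SCR. For MT-CO2, by contrast, the gap between siTLN1 b and SCR b was smaller than that between the SCR libraries. The same held in complex I for MT-ND4L, MT-ND4, MT-ND5 and MT-ND6. MT-CO1 and MT-CO2 did not pass without SCR library a (0.44 and 0.29) or without siTLN1 library a (0.40 in both). By length-scaled level (TPM), MT-CO2 was the most abundant member in SCR, at 16693 ± 2730 TPM (SD, n = 2).

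Complex V, the ATP synthase, takes MT-ATP6 and MT-ATP8 from the mitochondrial chromosome, and both rose. MT-ATP6 (chrM:8527-9207), which lines the proton channel, had 1408 and 1726 CPM in SCR and 2755 and 2139.95 CPM in siTLN1, a log2 fold change of 0.64 (SE 0.14, adjusted p 0.0139 by edgeR). MT-ATP8 (chrM:8366-8572) had 303 and 360.3 CPM in SCR and 600.3 and 448 CPM in siTLN1, a log2 fold change of 0.66 (SE 0.14, adjusted p 0.0134 by edgeR). These genes share 46 bases (22.2% of MT-ATP8), where a read cannot be assigned to 1 of them. Without siTLN1 library a both missed the threshold (0.45 and 0.43), and without SCR library a MT-ATP6 did (0.51).

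**Figure D2:**
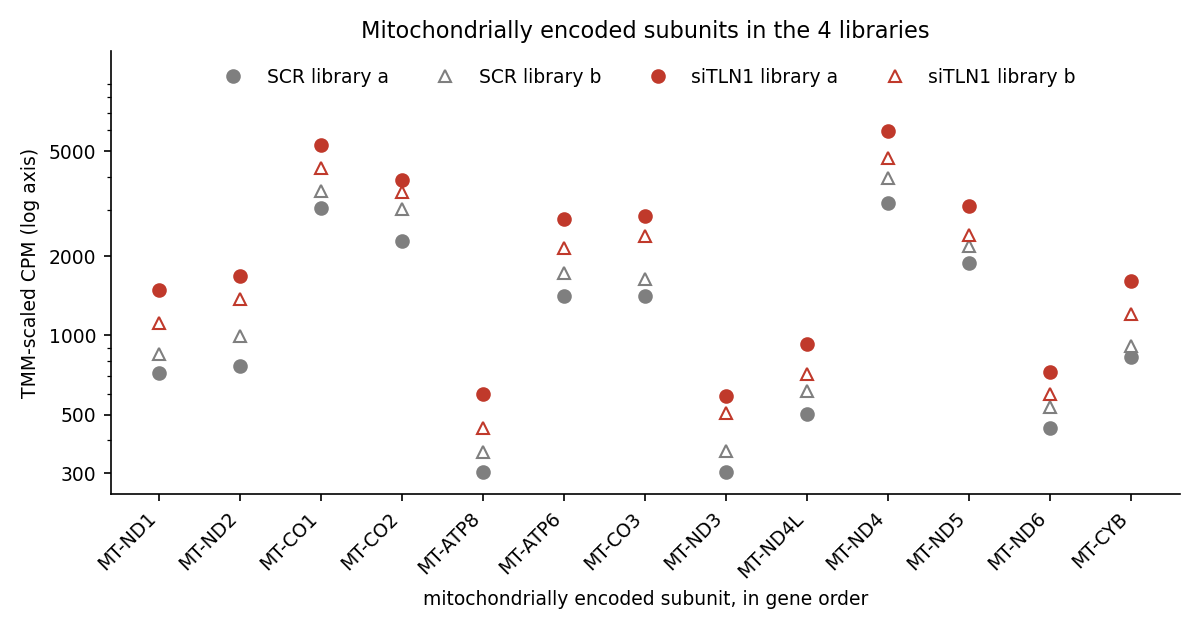
TMM-scaled CPM (log axis) of the 13 mitochondrially encoded subunits in each library, in gene order, with SCR in grey, siTLN1 in red, library a as circles and library b as triangles. For each gene both siTLN1 libraries lie above both SCR libraries, with siTLN1 a highest and SCR a lowest.

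The spread between replicates was itself ordered in the mitochondrial class. SCR library b was above SCR library a for all 13 genes and siTLN1 library a above siTLN1 library b for all 13. Compared between libraries with the same recurring number, the median difference was 0.96 for the a libraries and 0.31 for the b libraries, positive for 13 of 13 genes in both. Nuclear-encoded genes followed the order of the SCR libraries in 69 of 79 cases, but siTLN1 library a was above siTLN1 library b in 5 of 79. The median nuclear difference was 0.075 between the a libraries and 0.070 between the b libraries, positive for 53 and 59 genes.

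As a share of all counts, the 13 mitochondrial mRNAs made up 1.70% and 2.07% in SCR and 3.09% and 2.57% in siTLN1. The 79 nuclear mRNAs together made up 0.530% and 0.572% in SCR and 0.547% and 0.621% in siTLN1, so their groups overlapped. The ratio of mitochondrial to nuclear subunit counts was 3.22 and 3.61 in SCR and 5.65 and 4.15 in siTLN1. Per length the mitochondrial share was larger, at 8.67% and 10.1% of TPM in SCR and 15.2% and 12.5% in siTLN1. The lengths count the bases of all annotated exons of a gene, with medians of 784 for mitochondrial and 2324 for nuclear members. For a nuclear gene this can exceed the length of its mRNA, so its level per length, and any ranking by it, may be too low. What part the differences between replicates in this share play in the class difference was not tested.

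**Figure D3:**
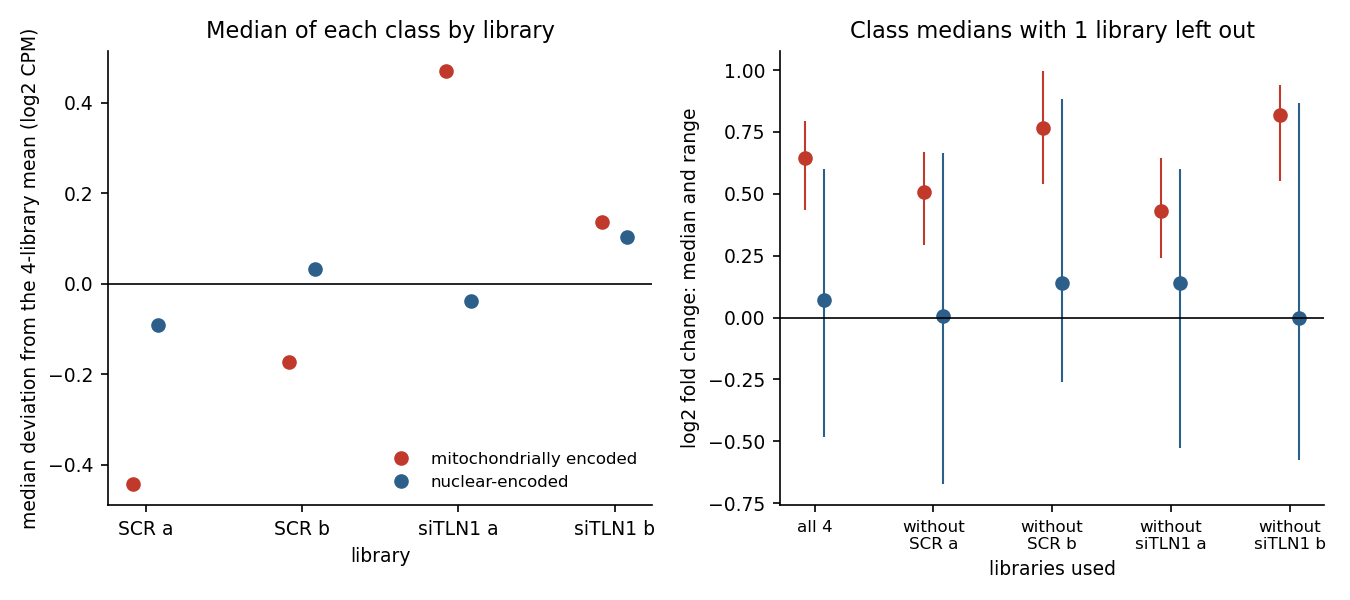
Left: median deviation of each class from its mean over the 4 libraries, in log2 CPM. Right: median (points) and range (lines) of the log2 fold changes of each class with all 4 libraries and with each left out. The mitochondrial median (red) runs from −0.44 in SCR a to 0.47 in siTLN1 a, the nuclear median (blue) from −0.092 to 0.10, and with 1 library left out the mitochondrial median stays between 0.43 and 0.82.

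The rRNAs of the same chromosome were compared with the mRNAs. MT-RNR2, the large rRNA, had 1676 and 2310.0 CPM in SCR and 3313 and 3056 CPM in siTLN1, a log2 fold change of 0.68 (SE 0.14, adjusted p 0.0119 by edgeR), and without SCR library a it did not pass (0.46). MT-RNR1, the small rRNA, had 252 and 497 CPM in SCR and 414 and 485 CPM in siTLN1. Its groups overlapped and its log2 fold change of 0.26 had an SE of 0.43 (adjusted p 0.826 by edgeR), turning to −0.14 without SCR library a. These rRNAs carry very short tails, and libraries made from polyadenylated RNA hold an unknown part of them.

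**Figure D4:**
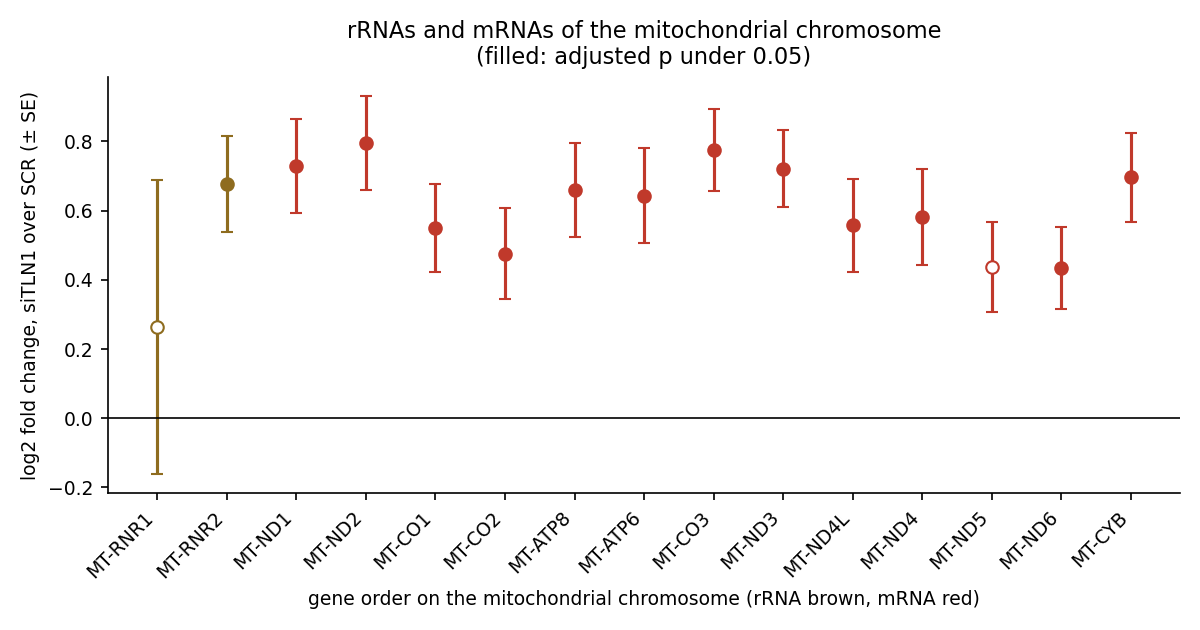
Log2 fold change, siTLN1 over SCR, with its standard error, for the rRNAs (brown) and mRNAs (red) in their order on the mitochondrial chromosome; filled points have an adjusted p under 0.05. Values run from 0.26 for MT-RNR1 to 0.80 for MT-ND2, and MT-RNR1 and MT-ND5 are the open points.

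The nuclear genome holds pseudogene copies of these genes, and reads that match a copy equally well may go uncounted in both. Of 404 named copies of the subunit genes, 10 were tested and 5 were higher, against 2.3% of all tested genes called higher. The median of the 10 was 0.56 and all were above 0, against 50.6% of all tested genes. MTATP6P1 had 129 and 157 CPM in SCR and 251 and 187 CPM in siTLN1 (log2 fold change 0.61), and MTND2P28 had 27.3 and 35.9 CPM in SCR and 60.2 and 47.9 CPM in siTLN1 (0.77). Whether reads counted for these copies came from mitochondrial RNA was not tested.

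Among the 79 nuclear-encoded subunits, log2 fold changes ran from −0.48 to 0.60, with quartiles of −0.013 and 0.15. By an unadjusted p under 0.05, 11 of 79 differed, against 19.8% of all tested genes. DESeq2, limma-voom and limma-trend with no block also gave 0 calls (6.84%, 5.97% and 5.89% of all genes). With the replicate block, limma-trend called 13 of the 79 higher and 4 lower, and 22.6% of all genes in either direction. The groups did not overlap for 23 genes with siTLN1 higher and 6 with siTLN1 lower, against 23.9% and 24.6% of all tested genes. The log2 fold change was positive for 57 genes and negative for 22, and positive for 50.6% of all tested genes. The number of positive genes moved with single libraries, to 38 without siTLN1 library b (class median −0.0014) and 42 without SCR library a (0.0049), and to 70 when SCR library b and 69 when siTLN1 library a was left out (0.14 in both). Few nuclear genes passed in these fits: NDUFS8 and COX7A1, both lower, without SCR library a, NDUFS3, higher, without SCR library b, and COX7A1 without siTLN1 library b.

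The nuclear part of complex I had a median of 0.053 over 36 genes, 20 of them positive. NDUFS5, an accessory subunit and the most abundant per length at 738 TPM, had 88.2 and 99.2 CPM in SCR and 93.5 and 107 CPM in siTLN1, a log2 fold change of 0.095. NDUFS8, a core subunit that carries iron-sulfur clusters, had 51.2 and 61.4 CPM in SCR and 44.8 and 49.6 CPM in siTLN1, the lowest log2 fold change of the complex at −0.25 (SE 0.11, adjusted p 0.192 by edgeR). The highest, 0.52, was that of NDUFA7, at 0.220 and 0.345 CPM in SCR and 0.522 and 0.319 CPM in siTLN1. NDUFA7 shares 32.5% of its exon bases with another gene on the same strand, so its count is uncertain. The same holds for NDUFV2, a core subunit listed at 0.468 to 0.879 CPM, with 28.4% shared. The libraries of NDUFS8 did not overlap between groups, while those of NDUFS5, NDUFA7 and NDUFV2 did.

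Complex II, succinate dehydrogenase, had a median of 0.091 over its 4 genes, all above 0 and none called. SDHA, the flavoprotein subunit, had 37.5 and 40.6 CPM in SCR and 45.4 and 42.5 CPM in siTLN1, a log2 fold change of 0.17. SDHB, the iron-sulfur subunit and the most abundant per length at 163 TPM, had a log2 fold change of 0.0075. Complex II has no mitochondrially encoded part, and the values of its genes lay within the range of the other nuclear subunits.

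For complex III the median was 0.098, with all 9 nuclear genes taken by symbol above 0, a choice that left out CYC1. UQCRC1, a core subunit with 257 TPM in SCR, had 182 and 199 CPM in SCR and 199 and 211 CPM in siTLN1, a log2 fold change of 0.11. UQCRQ, a small subunit, had the lowest value of the complex at 0.014. The highest was that of UQCRHL, a near-identical copy of UQCRH, with 1.54 and 1.41 CPM in SCR and 2.23 CPM in both siTLN1 libraries. Its log2 fold change was 0.60 (SE 0.22, adjusted p 0.131 by edgeR). UQCRH itself, the hinge protein, had a log2 fold change of 0.098, and reads that match both copies could have been left uncounted.

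The nuclear subunits of complex IV had a median of 0.093 over 13 genes and held the nuclear gene closest to the threshold. COX7A1, the isoform typical of heart and skeletal muscle, had 15.3 and 20.4 CPM in SCR and 11.9 and 13.5 CPM in siTLN1, a log2 fold change of −0.48 (SE 0.14, adjusted p 0.0558 by edgeR). Its groups did not overlap, and it passed when SCR library a (−0.67) or siTLN1 library b (−0.57) was left out. Its widely expressed counterpart COX7A2 had 51.6 and 57.9 CPM in SCR and 60.6 and 68.5 CPM in siTLN1, a log2 fold change of 0.24 (adjusted p 0.200 by edgeR). Thus the isoforms had opposite signs, and neither passed. COX7A2L, a relative that takes part in joining complexes III and IV, had 0.093.

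COX7C, a small structural subunit, had the highest value of the complex, 0.29, with 50.02 and 57.1 CPM in SCR and 61.1 and 69.5 CPM in siTLN1 (adjusted p 0.124 by edgeR). COX8A, the most abundant per length at 825 TPM, had −0.047. COX8A shares 35.4% of its exon bases with another gene on the same strand, so its count is uncertain. The remaining isoform genes had log2 fold changes of 0.11 for COX4I1, 0.14 for COX6A1, 0.045 for COX6B1, 0.17 for COX7B and 0.13 for NDUFA4, while the NDUFA4 relative NDUFA4L2 had −0.28 at 1.51 CPM in SCR and 1.25 CPM in siTLN1. Over the whole list of isoform pairs, 15 of 20 genes were tested and 0 passed, with 3 at an unadjusted p under 0.05. The tissue-restricted isoforms COX6A2, COX4I2 and COX8C had 0 counts in all 4 libraries, which allows up to 3 counts per library, for counting error only.

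In complex V the median was 0.067 over 17 nuclear genes. ATP5F1B, the catalytic beta subunit, was the most abundant nuclear member per length at 1073 TPM and had 544 and 567 CPM in SCR and 575 and 622 CPM in siTLN1, a log2 fold change of 0.11. ATP5MG, a membrane subunit, had the highest value, 0.22, with 35.1 and 37.7 CPM in SCR and 39.9 and 45.05 CPM in siTLN1 (adjusted p 0.238 by edgeR), and ATP5F1E, in the central stalk, the lowest, −0.026. The genes ATP5MC1, ATP5MC2 and ATP5MC3, which encode the same ring protein with different import signals, had 0.16, 0.068 and 0.067. None of the 17 passed.

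Many nuclear members cannot be counted cleanly. Of the 79, 20 share more than 5% of their exon bases with another gene on the same strand, 20 with one on the opposite strand, and 49 have at least 1 named pseudogene, up to 17 for COX6C.

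Nuclear OXPHOS promoters are known for sites of NRF1 and of the GA-binding protein (GABP), and the RefSeq promoter table (GRCh38.p14, 250 bases before to 50 after the start) held 64 of the 79 genes. The NRF1 word is GCGCA then any base then GCGC, read on both strands. It was in 16 of the 64 genes (25%), against 12.9% of 11365 tested genes and 6.98% of all genes in the promoter table. The GABP word CCGGAAG was in 21 (32.8%), against 21.7% of tested genes and 12.2% of all genes in the promoter table. A match describes the letters and not a bound site. For complexes I, II, III and V, the member with the word that was most abundant per length is shown in a stretch of 30 bases with the word in capitals.
NDUFA8, chr9:122159764-122159793, minus strand: gttgccggatGCGCATGCGCaggcgccgtg
SDHD, chr11:112086753-112086782, plus strand: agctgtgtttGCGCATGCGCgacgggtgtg
UQCRC1, chr3:48609674-48609703, minus strand: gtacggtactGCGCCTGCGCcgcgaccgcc
ATP5F1C, chr10:7788145-7788174, plus strand: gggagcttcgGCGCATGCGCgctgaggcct
Their log2 fold changes were −0.11 for NDUFA8, 0.11 for SDHD, 0.11 for UQCRC1 and 0.070 for ATP5F1C, and none passed.

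The transcriptional regulators of nuclear subunits gave 1 call among 13 tested genes of 14 listed, against 6.07% of all tested genes called. The median of the list was 0.061. GABPB2, a partner subunit of the DNA-binding GABPA, fell from 16.4 and 15.3 CPM in SCR to 11.4 and 10.3 CPM in siTLN1, a log2 fold change of −0.55 (adjusted p 0.0110 by edgeR), and missed the threshold without siTLN1 library b (−0.47). GABPA itself had 0.060, NRF1 0.020, the nuclear receptor ESRRA −0.047 and the coactivator PPARGC1B 0.32, none of which passed.

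Factors that maintain and transcribe mitochondrial DNA gave 1 higher and 1 lower call among 19 genes, with a median of 0.022. Of all tested genes, 2.3% were called higher and 3.77% lower. TFAM, which packages mitochondrial DNA and starts its transcription, rose from 42.2 and 36.1 CPM in SCR to 54.8 and 53.2 CPM in siTLN1, a log2 fold change of 0.46 (SE 0.10, adjusted p 0.0122 by edgeR). It did not pass without SCR library b (0.35) or siTLN1 library a (0.44). SSBP1, the mitochondrial single-stranded DNA-binding protein, fell from 75.2 and 78.0 CPM to 54.8 and 59.2 CPM, a log2 fold change of −0.43 (SE 0.095, adjusted p 0.0124 by edgeR), and did not pass without siTLN1 library a (−0.37). The mitochondrial RNA polymerase POLRMT had 0.21 and its partner TFB2M 0.12, and neither passed. The siTLN1 libraries of TFAM and SSBP1 were each clear of both SCR libraries, in opposite directions.

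Genes of mitochondrial RNA processing and stability gave 2 higher and 1 lower call among 24 tested of 26 listed, with a median of 0.12. The shares over all tested genes were 2.3% called higher and 3.77% called lower. PDE12, an exonuclease that removes poly(A) tails from mitochondrial RNA, fell from 57.9 and 51.8 CPM in SCR to 33.5 and 32.98 CPM in siTLN1, a log2 fold change of −0.72 (SE 0.10, adjusted p 0.000301 by edgeR), and passed with each library left out. LRPPRC, which stabilises mitochondrial mRNAs and promotes their polyadenylation, rose from 201 and 177 CPM to 255 and 230.0 CPM, a log2 fold change of 0.36 (SE 0.099, adjusted p 0.0403 by edgeR). It missed the threshold without SCR library b (0.27) or siTLN1 library a (0.28). FASTKD5, needed to cut precursors that no tRNA flanks, rose from 30.1 and 29.5 CPM to 37.3 and 38.9 CPM (0.36, adjusted p 0.0390 by edgeR) and did not pass with any 1 library left out (0.33 to 0.39). The LRPPRC partner SLIRP had −0.044 and the poly(A) polymerase MTPAP 0.077. These libraries were made from polyadenylated RNA, and what part tail length plays in the mitochondrial counts was not tested.

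The 7-base word GACAACA was looked up in the members because an earlier search of these same data had picked it out, so its presence supports nothing here, and 3′ UTR length was not allowed for. Of the nuclear subunits 3 of 79 (ATP5MG, NDUFA5 and SDHC) hold it in the 3′ UTR, against 7.31% of tested protein-coding genes, and their log2 fold changes were all positive and not called. The annotation gives the mitochondrially encoded genes no 3′ UTR, so the word could be looked up only in their coding part, where MT-ATP6 alone holds it. The median 3′ UTR was 196 bases long for nuclear subunits and 991 for all tested coding genes. Of the called-lower genes of the lists above and below, PDE12 holds 2 copies and MRPL35 1 copy in the 3′ UTR, while SSBP1 and GABPB2 hold 0 there.

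The other lists are read against the 6.07% of all tested genes called and the 19.8% at an unadjusted p under 0.05. Mitochondrial ribosomal proteins gave 1 lower call among 77 tested of 78 listed, with a median of −0.0069. It was MRPL35, of the large subunit, at 61.9 and 63.1 CPM in SCR and 39.2 and 48.9 CPM in siTLN1 (log2 fold change −0.50, adjusted p 0.0118 by edgeR), and it did not pass without siTLN1 library a (−0.35). Assembly factors of the complexes gave 0 calls among 53, with 4 at an unadjusted p under 0.05 and a median of −0.024. Other electron carriers and ubiquinone synthesis gave 1 call among 24, with a median of 0.034. That was COQ8A, which supports ubiquinone synthesis, at 12.0 and 12.2 CPM in SCR and 17.8 and 15.4 CPM in siTLN1 (log2 fold change 0.45, adjusted p 0.0323 by edgeR), and it missed the threshold when SCR library a (0.44) or siTLN1 library a (0.35) was left out. Cytochrome c, from CYCS, had 0.031. Cytochrome c1, from CYC1, which the choice by symbol left out of complex III, had 0.082.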

How the data were processed

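RNA abundance was measured in 4 libraries of Hs578T cells, 2 SCR and 2 siTLN1, grouped by the sample titles. Raw gene counts were deposited by the authors. Per the file headers, featureCounts 2.0.0 made it in paired mode on GENCODE 33 (GRCh38), with neither a strand nor a multi-mapping option. STAR 2.7.9a, Subread 2.0.0 and edgeR 3.34.1 are named in the submitters' processing notes. The deposited log2 CPM table holds 16137 genes, and when checked 100% of its values, sorted within groups, equalled TMM-scaled log2 CPM within 1e-04. Gene lengths, used for TPM, are a further column that the authors deposited with the counts, in a unit other than counts. The count columns name a group and a number found in no label, and were therefore assigned to groups but not to single samples.

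From the counts, genes were filtered with filterByExpr (minimum count 10, total 15), which kept 16137 of 60721, scaled by TMM and tested with edgeR 4.0.16 in R 4.3.3 (estimateDisp, robust glmQLFit, glmQLFTest), with Benjamini-Hochberg adjustment and a threshold of 0.05. The biological coefficient of variation was 0.0805. CPM values are TMM-scaled unless said otherwise, and SDs are over 2 libraries. Lists are described by counts and medians, with no test over a list.

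Members and lists were chosen with earlier results of these data known. Named genes are TLN1, every mitochondrially encoded subunit and rRNA, nuclear subunits past the threshold, the highest, the lowest and the most abundant nuclear subunit of each complex, isoform pairs, and up to 3 called genes of each list. Others were named for their role or, where said, for a word in their sequence, after their values were seen. Alternatives were RLE scaling, total counts only, TMM without mitochondrial genes, no filter, a mean of 10 counts, DESeq2 1.42.0, limma-voom and limma-trend (limma 3.58.1), a replicate block, removal of the gene-length trend, and each library left out. Gene positions and overlaps come from GENCODE 29 (GRCh38), not the release used for counting. The scripts were tested on simulated data.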

Additional observations from a re-analysis of the deposited data

How the results depend on the processing

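With all 4 libraries, the mitochondrial calls numbered 11 to 13 in every alternative and 10 of the 13 genes passed in each. A median was taken to keep its size if it moved by less than the SD between replicates, and a count if it stayed within a set ratio. That SD was 0.21 for the mitochondrial median and 0.095 for the nuclear one, larger than the nuclear median itself, so the rule is loose there. The nuclear median ran from 0.070 to 0.085 under these settings. Of 55 summary values under these settings 51 kept their size by this rule. The others were counts of nuclear calls, 0 in the reported fit and 1 with total counts only (COX7A1; 7.76% of all genes passed), 2 with the length trend removed (COX7A1 and COX7C; 9.44%), 17 with the replicate block (22.6%) and 15 with both the block and length correction (21.7%). Across genes, the difference of replicate 2 from replicate 1 within SCR correlated at 0.190 with that within siTLN1. No label states a shared preparation, and 2 pairs are too few to show one. The block was therefore used only as an alternative, and its fits are counted among the 16 fits run. Of 581 values of named genes, 552 kept their side of the threshold, 6 lost it, 23 gained it and 0 changed sign.

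Leaving out 1 library gave 4 to 13 mitochondrial and 0 to 2 nuclear calls. The medians ran from 0.43 to 0.82 and from −0.0014 to 0.14, and their difference, 0.57 with all 4, from 0.29 to 0.82. In these fits the lone library of a group is assumed to vary like the other group. Signs changed for MT-RNR1 (−0.14 to 0.83), NDUFS5 (−0.00056 to 0.19), SDHB (−0.070 to 0.083), UQCRQ (−0.056 to 0.084), COX8A (−0.13 to 0.049), ATP5F1E (−0.15 to 0.088), COX6B1 (−0.081 to 0.16), COX7A2L (−0.045 to 0.22) and ATP5MC2 (−0.0014 to 0.14). The causes were not tested. Low counts limit UQCRHL, NDUFA7, NDUFV2 and NDUFA4L2, which lay under 3 CPM. For UQCRHL, NDUFA7 and NDUFV2, sequence or exons shared with another gene also make the counts uncertain.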

Other observations

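The tRNAs of the mitochondrial chromosome, which are cut from the same precursors as the subunit mRNAs, were measured weakly, with SCR means of at most 24.8 CPM. Of 18 tested, 4 were higher in siTLN1 by edgeR's test with adjustment over all genes, against 2.3% of all tested genes. All 18 tRNAs had log2 fold changes above 0, against 50.6% of all tested genes, with a median of 0.59. For 12 of them the groups did not overlap, against 23.9% of all tested genes. Mature tRNAs are poorly recovered in libraries of polyadenylated RNA, and what part unprocessed precursor has in these counts was not tested.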
